A study of Mus musculus with 18 samples.

Results

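The genes for the mitochondrial ribosomal proteins were examined in whole mouse brain, with and without Ftsj1. The members were the protein-coding genes whose symbols start with Mrpl or Mrps and a number, pseudogenes left out, each taken as its transcript row with the most counts over 12 libraries. This rule found 78 genes among 21228 protein-coding genes with a row. The study's animals were 6 untreated male C57BL/6 mice aged 8 weeks, 3 wild-type (WT) and 3 knockout (KO) for Ftsj1, which encodes a tRNA ribose methyltransferase acting on the anticodon loop. Each brain gave 1 library of polyadenylated total mRNA and 1 library of ribosome-contained mRNA, the mRNA fragments that ribosomes protect in ribosome profiling. The 4 groups are thus WT and KO total mRNA and WT and KO ribosome-contained mRNA, with 3 mice in each. The sources used here do not say how the knockout was made. Whole brain was used, so fewer cells of a type and less RNA per cell cannot be told apart in any value below.

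The mitochondrial ribosome translates the few mRNAs that mitochondrial DNA encodes, all of them for subunits of the oxidative phosphorylation complexes. Its RNAs come from mitochondrial DNA, but all of its proteins are encoded in the nucleus, made on cytosolic ribosomes and imported. Many of these proteins descend from bacterial ribosomal proteins, and others are found only in mitochondria. The Mrpl genes mostly encode the large subunit, which forms peptide bonds, and the Mrps genes mostly the small subunit, which reads the mRNA. Brain depends heavily on oxidative phosphorylation, and inherited loss of some of these proteins, such as MRPS34, causes encephalopathy in humans.

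The 12 libraries held between 2024748 and 3459406 counts for total mRNA and between 1055741 and 1560192 for ribosome-contained mRNA. The 2 rows of Ftsj1 had 0 counts in all 12 libraries, the WT ones included, so the knockout could not be checked in these data. The tissue label fitted the markers: 6 neuronal markers summed to between 7065 and 7837 normalised CPM (counts scaled by library size with TMM factors, set within each kind of library) in every library, and 5 markers of liver and muscle to between 0.950 and 5.14 CPM. Markers of choroid plexus, the epithelium that makes cerebrospinal fluid, had higher sums in KO. All 5 had counts, and they summed to between 2292 and 2530 CPM in WT and between 2862 and 2897 CPM in KO total mRNA. In ribosome-contained mRNA the same sums were 4884 to 5437 CPM in WT and 6459 to 7215 CPM in KO. All 5 estimates were above 0 in both kinds of library. EdgeR's quasi-likelihood test called 1 of the 5 in each kind at an adjusted p under 0.05, against 0.329% and 0.211% of all rows. WT and KO did not overlap for 4 markers in total and 2 in ribosome-contained mRNA, against 13.3% and 14.7% of all rows. The part of these cells in the values of the mitochondrial ribosomal protein genes was not tested.

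Of the 78 members, 51 encode large-subunit proteins, 26 encode small-subunit proteins, and Mrps36 encodes a protein now assigned to a dehydrogenase complex. Among the large-subunit members 30 were listed with a bacterial homolog and 21 as mitochondria-specific, and among the small-subunit members these numbers are 16 and 10. The mitochondria-specific list includes Mrps18a, although its protein is related to bacterial S18. Mrps30 and Mrps18a are counted with the large subunit, where their proteins sit despite their names. At least 1 count was found for 70 members, and 8 were at 0 in all 12 libraries: Mrpl4, Mrpl20, Mrpl24, Mrpl42, Mrpl55, Mrpl58, Mrps21 and Mrps36. The filter on low counts kept 55 members in total mRNA and 46 in ribosome-contained mRNA, and 15 members with counts were tested in neither.

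Members differ in how many transcript models RefSeq lists for them. Among the 37 members with a single RefSeq accession, 36 were tested in both kinds of library, against 10 of the 41 with 2 or more. A low or absent count of a gene with several accessions therefore does not bound its expression. How the authors treated reads that match several transcript models is not given in the sources used here. Tested in total mRNA only were 9 members: Mrpl1, Mrpl14, Mrpl27, Mrpl30, Mrpl39, Mrpl45, Mrpl48, Mrpl57 and Mrps10. The row of Mrpl48 is a noncoding transcript model. The gene bodies of 25 members overlap another gene, and 17 of these were tested in total mRNA, among them Mrpl19 (with Gcfc2), Mrpl37 (Cyb5rl), Mrpl43 (Twnk), Mrpl49 (Syvn1), Mrps6 (Slc5a3), Mrps7 (Gga3 and Mif4gd) and Mrps18a (Rsph9). Whether the authors counted by strand is not given in the sources used here, so reads in such overlaps are of uncertain origin.

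The starts of the members were compared in RefSeq windows of build GRCm38.p6, which covered 75 starts of 69 members. The 250 bases before each start were searched on both strands for a word that nuclear respiratory factor 1 (NRF1) binds, GCGCA and then any base and GCGC, and for CCGGAAG, a core of ETS-family factors such as GABP. NRF1 and GABP are known regulators of nuclear genes for mitochondrial proteins. The NRF1 word was in 10 of the 75 windows (13.3%), against 5.18% of 21262 protein-coding windows and 1.37% of 73 windows of cytosolic ribosomal protein genes. The ETS word was in 18 (24.0%), against 8.98% of all and 26.0% of the cytosolic ribosomal protein windows. The word AAGATGGC of YY1 was in 4 (5.33%) against 1.50% of all, and TATAAA in 5 (6.67%) against 11.6%. A match is a description of the sequence and not evidence of binding.

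The windows of 6 genes are shown because the genes head the results below: Mrpl12 had the highest level, Mrps18a one of the highest levels per length, Mrpl32 and Mrps22 high ribosome-to-total ratios, and Mrpl46 and Mrps6 the lowest p-values in total mRNA. Capitals mark the NRF1 word in Mrpl12 and Mrpl32 and the ETS word in Mrps18a and Mrps22, each read 5′ to 3′ towards the gene. No word overlaps another in them. The windows of Mrpl32 and Mrpl46 end before the start of the divergent neighbour.
Mrpl12 (chr11:120484387-120484636, + strand): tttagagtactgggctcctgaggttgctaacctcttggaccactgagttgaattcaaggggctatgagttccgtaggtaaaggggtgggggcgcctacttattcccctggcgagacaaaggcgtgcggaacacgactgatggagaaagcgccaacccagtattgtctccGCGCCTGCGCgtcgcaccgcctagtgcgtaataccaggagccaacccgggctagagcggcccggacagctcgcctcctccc
Mrpl32 (chr13:14613038-14613241, - strand): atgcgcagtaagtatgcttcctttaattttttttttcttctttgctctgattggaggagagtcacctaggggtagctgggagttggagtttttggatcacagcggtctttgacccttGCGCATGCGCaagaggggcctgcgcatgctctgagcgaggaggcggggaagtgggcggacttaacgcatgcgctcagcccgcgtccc
Mrps18a (chr17:46110754-46111003, + strand): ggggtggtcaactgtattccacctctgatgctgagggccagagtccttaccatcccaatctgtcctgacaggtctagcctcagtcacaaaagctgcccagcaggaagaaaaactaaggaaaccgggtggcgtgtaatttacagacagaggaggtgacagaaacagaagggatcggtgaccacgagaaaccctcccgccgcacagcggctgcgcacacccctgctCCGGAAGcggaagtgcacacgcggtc
Mrps22 (chr9:98601680-98601929, - strand): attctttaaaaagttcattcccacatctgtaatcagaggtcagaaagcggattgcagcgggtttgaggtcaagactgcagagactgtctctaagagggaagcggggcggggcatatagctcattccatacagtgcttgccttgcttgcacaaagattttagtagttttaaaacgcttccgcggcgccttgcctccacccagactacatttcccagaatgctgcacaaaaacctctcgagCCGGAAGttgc
Mrpl46 (chr7:78783090-78783130, - strand): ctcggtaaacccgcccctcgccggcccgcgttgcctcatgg
Mrps6 (chr16:92058086-92058335, + strand): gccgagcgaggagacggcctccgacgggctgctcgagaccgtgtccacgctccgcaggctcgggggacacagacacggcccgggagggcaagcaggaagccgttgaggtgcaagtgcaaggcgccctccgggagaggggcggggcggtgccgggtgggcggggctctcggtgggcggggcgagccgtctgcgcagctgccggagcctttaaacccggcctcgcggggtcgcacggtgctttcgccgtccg

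The 41 bases of Mrpl46 are the whole stretch between its start and that of Mrps11, a small-subunit gene that runs the other way, so 1 short stretch lies between genes for a protein of each subunit. Mrps11 itself had a single count and was not tested. A start on the opposite strand within 1000 bases, pointing away, was found for 26 of the 69 members (37.7%), against 13.1% of 17491 protein-coding genes. Among the neighbours were Psma2, a proteasome subunit, 205 bases from Mrpl32, Ndufb5, a subunit of respiratory complex I, 308 bases from Mrpl47, and Sars2, the mitochondrial seryl-tRNA synthetase, 147 bases from Mrps12. The last bases of the Mrps6 window overlap Slc5a3, which begins at position 92058322 of chromosome 16, where Mrps6 begins at 92058336.

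Levels were compared in WT total mRNA. As CPM, the highest member was Mrpl12, a protein of the stalk that recruits translation factors, with 187, 184 and 198 CPM in the 3 WT mice and 194, 193 and 195 CPM in the 3 KO mice. Between genes only values per length are comparable, and per kilobase of transcript the order was Mrpl52, Mrps18a, Mrps34, Mrpl28, Mrpl12 and Mrpl34. Mrpl52, a mitochondria-specific large-subunit protein, had 183 ± 11.5 CPM per kb (SD, n = 3). Mrps18a, one of the related proteins derived from bacterial S18, had 170 ± 7.05, and Mrps34, a mitochondria-specific small-subunit protein, had 168 ± 9.66. Mrpl28, homologous to bacterial L28, had 163 ± 7.73, followed by Mrpl12 with 144 ± 5.46 and Mrpl34, homologous to bacterial L34, with 137 ± 9.31. The mouse values of neighbours in this order overlapped, except that all values of Mrpl28 (156 to 171 CPM per kb) lay above all of Mrpl12 (140 to 150.5).

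The 36 single-accession members spread widely around these. The transcript lengths used for Mrpl32, Mrpl51 and Mrps26 exceed their whole genes in RefSeq, so values per kilobase of transcript are approximate. Per kilobase of transcript, the WT total level ranged from 4.70 to 183 CPM per kb with a median of 44.6. The SD of its log2 was 1.43. Divided by the coding length alone, which leaves out the untranslated parts that total mRNA reads also cover, it ranged from 20.9 to 316. The median was then 112, the span 15.1-fold and the SD of the log2 level 1.10. In WT ribosome-contained mRNA, where reads should fall mostly on the coding part, the level per kilobase of coding sequence ranged from 37.9 to 554 CPM per kb. This was a span of 14.6-fold with an SD of 0.97. Mrpl34 was highest there, with 554 ± 28.9 CPM per kb, and Mrpl47, whose protein is the homolog of bacterial L29 at the exit tunnel, was lowest, with 37.9 ± 3.71. Most proteins of an assembled mitochondrial ribosome are present in 1 copy each, and the mRNA levels per length were not equal.

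**Figure D1:**
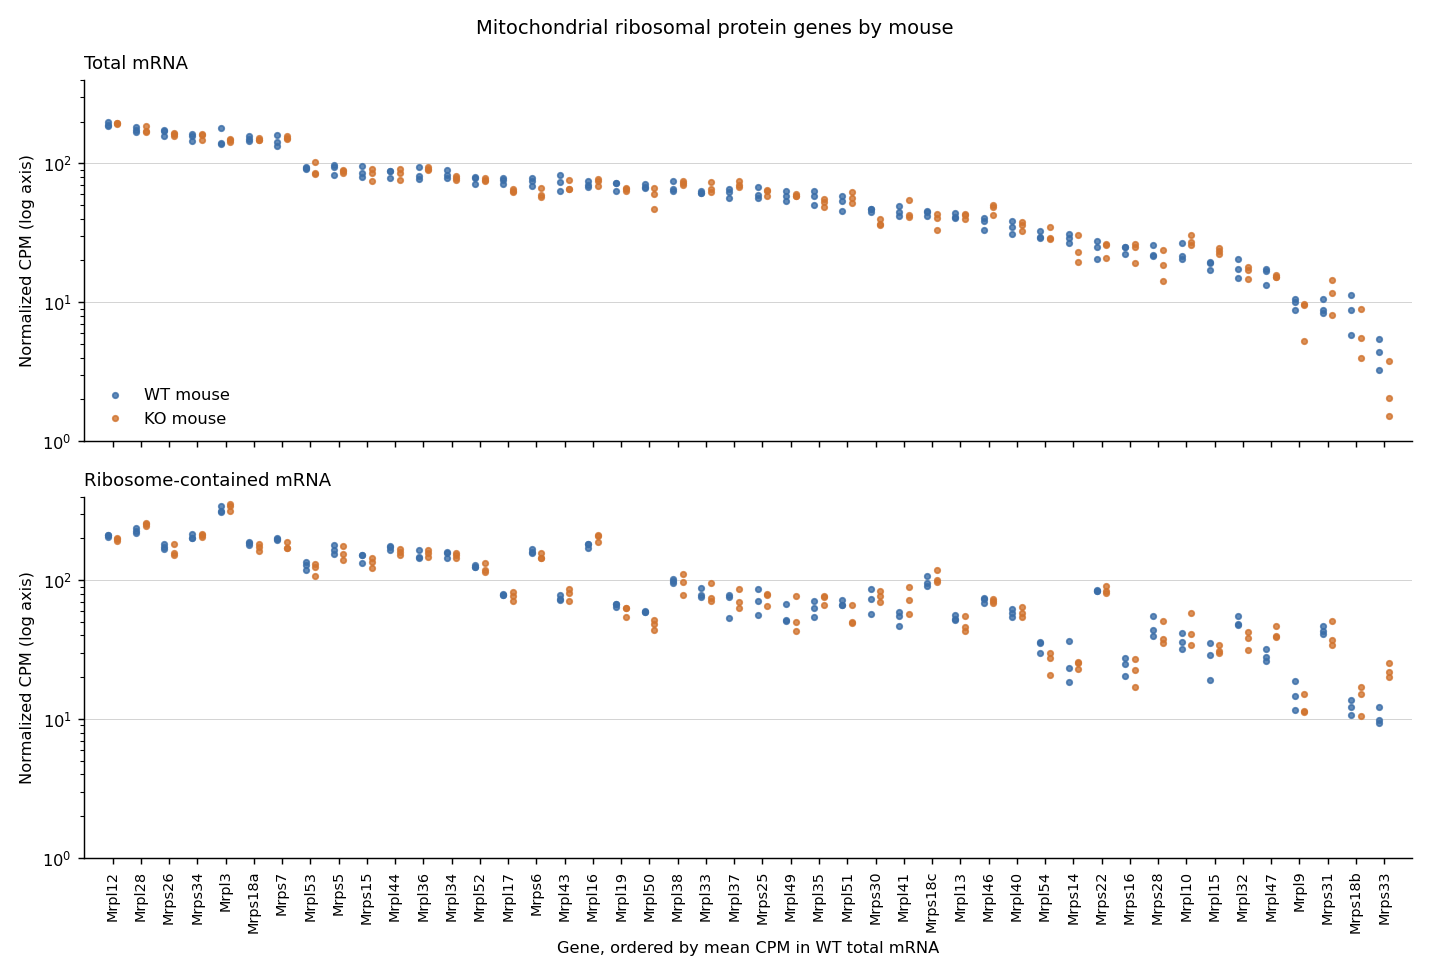
Normalised CPM (log axis, scaled within each kind of library) of the 46 members tested in both kinds of library, in total mRNA (top) and ribosome-contained mRNA (bottom). Each point is 1 mouse, WT in blue and KO in orange, and genes are ordered by their mean in WT total mRNA; WT and KO points lie on top of each other for most genes, and Mrps33 is lowest in total mRNA.

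Knockout and wild type were then compared in total mRNA. No member was called at an adjusted p under 0.05 in edgeR's quasi-likelihood test with Benjamini-Hochberg adjustment, where 0.329% of 8206 rows were called. At an unadjusted p under 0.05 there were 7 of 55 members, against 8.15% of all rows, and DESeq2 called 0 with 2 at an unadjusted p under 0.05. The median log2 difference of the members was 0.00 (all rows 0.01), with 28 above 0 and 27 below. The 95% interval of the difference lay within 0.5 on the log2 scale on either side of 0 for 37 of the 55 and within 1 for 49. Added up, the 46 members tested in both kinds reached 3070 ± 32.0 CPM in WT and 3037 ± 75.2 CPM in KO (SD, n = 3 each).

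In the large subunit, 23 of 39 tested members were above 0 and in the small subunit 5 of 16, beside 4262 of 8206 rows. All 5 tested proteins of the central protuberance were above 0, with a median of 0.08, and 1 of 5 of the exit tunnel was, with a median of -0.04. At each of these sites 1 of the 5 had an unadjusted p under 0.05 in edgeR. In ribosome-contained mRNA 1 of 3 tested central protuberance proteins was above 0 (median -0.02), and 0 of 3 in the difference of the ribosome-to-total ratio. The 4 tested proteins of the stalk had a median of 0.03 in total mRNA and -0.08 in ribosome-contained mRNA. Mrpl46, a protein of the central protuberance, which faces the small subunit, had 40.2, 38.2 and 33.4 CPM in the WT mice and 42.8, 50.0 and 48.2 CPM in the KO mice. Every KO mouse was above every WT mouse, by 0.34 ± 0.13 (SE) on the log2 scale, with an adjusted p of 0.423 in edgeR's quasi-likelihood test. Mrps30, a mitochondria-specific large-subunit protein, had 46.7, 47.1 and 44.4 CPM in WT and 39.8, 36.4 and 36.1 CPM in KO. Here every KO mouse was below every WT mouse (log2 difference -0.30 ± 0.13, edgeR adjusted p 0.506). Mrpl17, which lines the exit tunnel, had 78.4, 75.5 and 71.0 CPM in WT and 65.9, 63.6 and 62.7 CPM in KO, again without overlap (-0.23 ± 0.10, edgeR adjusted p 0.535). Mrpl37, a mitochondria-specific large-subunit protein, differed by 0.20 ± 0.10 with an adjusted p of 0.626 in the same edgeR test, and by 0.133 without WT mouse 3.

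Mrps6, the homolog of bacterial S6 on the small subunit's platform, had the lowest p of the members in total mRNA. It had 75.0, 78.5 and 68.4 CPM in WT and 56.8, 66.4 and 58.9 CPM in KO, which do not overlap (log2 difference -0.28 ± 0.10, edgeR adjusted p 0.423). In ribosome-contained mRNA it had 157, 167 and 160 CPM in WT and 144, 145 and 157 CPM in KO, with 1 KO mouse at the level of the lowest WT mouse (-0.12 ± 0.10, edgeR adjusted p 0.783). Slc5a3, the myo-inositol transporter gene whose start it shares, fell in KO by 0.40 ± 0.07 on the log2 scale in total mRNA (edgeR adjusted p 0.00171) and by 0.39 ± 0.08 in ribosome-contained mRNA (adjusted p 0.0125). Slc5a3 had 303, 317 and 331 CPM in WT and 231, 274 and 215 CPM in KO total mRNA, again without overlap and at a higher level than Mrps6. How far reads of one gene were counted for the other was not tested.

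A further pair of members with low p in total mRNA had few counts. Mrps10, a small-subunit protein, had 1.25, 2.45 and 2.92 CPM in WT and 5.56, 3.64 and 4.62 CPM in KO, from 73 counts over the 12 libraries on 1 of its 8 accessions (1.08 ± 0.44, edgeR adjusted p 0.478). Mrpl57, a mitochondria-specific large-subunit protein, had 4.98, 2.94 and 4.86 CPM in WT and 7.32, 8.79 and 5.49 CPM in KO, and its row had 0 counts in all ribosome-contained libraries (0.70 ± 0.33, edgeR adjusted p 0.576). In all, the WT and KO values did not overlap for 10 of the 55 members, 6 higher and 4 lower in KO, against 13.3% of all rows.

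**Figure D2:**
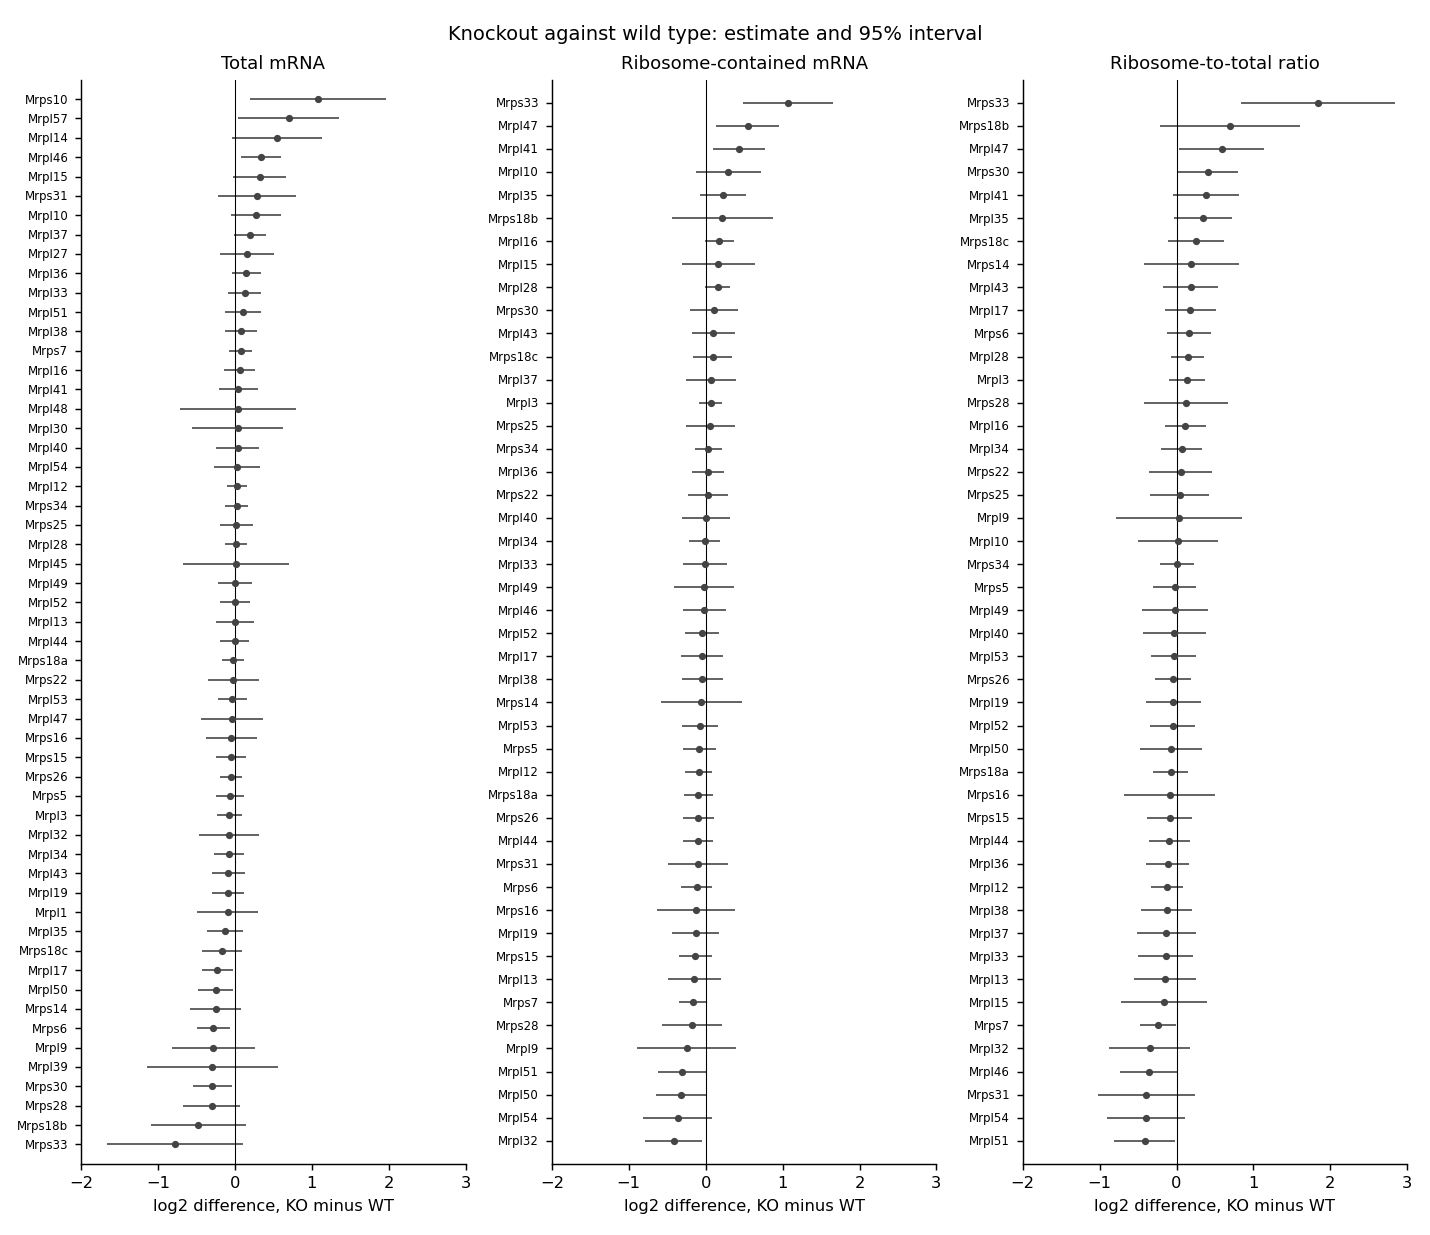
Log2 difference between KO and WT (KO minus WT) for each member in total mRNA (55 members), ribosome-contained mRNA (46) and the ribosome-to-total ratio (46), each sorted by its estimate. Points are edgeR estimates and bars their 95% intervals; most bars cross 0, and Mrps33 stands at the top of the ribosome-contained and ratio panels.

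The same comparison in ribosome-contained mRNA also called 0 of 46 members, where edgeR's quasi-likelihood test with Benjamini-Hochberg adjustment called 0.211% of 4749 rows. At an unadjusted p under 0.05 there were 4 members, against 9.41% of all rows. DESeq2 called 0, with 3 at an unadjusted p under 0.05. The median log2 difference was -0.03 (all rows -0.00), with 19 above 0 and 27 below, and the 95% interval lay within 0.5 of 0 for 31 members and within 1 for 45. The summed level was 4533 ± 47.2 CPM in WT and 4511 ± 146 CPM in KO (SD, n = 3 each). The groups did not overlap for 11 members, 4 higher and 7 lower in KO, against 14.7% of all rows.

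Mrps33, a small mitochondria-specific protein of the small subunit, had the lowest p of the members. It had 9.93, 9.43 and 12.1 CPM in the WT mice and 19.9, 25.4 and 21.7 CPM in the KO mice. All KO mice were above all WT mice, 2.10-fold on average, by 1.07 ± 0.29 on the log2 scale with a 95% interval of 0.48 to 1.66 (edgeR p 0.000889, adjusted p 0.139). Its total mRNA went the other way, with 4.36, 5.39 and 3.24 CPM in WT and 2.05, 1.52 and 3.75 CPM in KO, where 1 KO mouse lay within the WT range (-0.77 ± 0.44, edgeR adjusted p 0.667). These values rest on 175 counts over the 12 libraries, on 1 of the 2 accessions of the gene. Over the alternatives tried, the ribosome-contained difference ranged from 0.96 to 1.20 and its adjusted p from 0.0584 to 0.826.

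Among proteins of the exit tunnel, Mrpl47 had 28.1, 31.7 and 26.2 CPM in WT and 38.9, 46.5 and 39.6 CPM in KO ribosome-contained mRNA, without overlap (0.55 ± 0.20, edgeR adjusted p 0.336). Mrpl41, a mitochondria-specific large-subunit protein, had 47.2, 54.9 and 59.4 CPM in WT and 57.0, 88.6 and 72.5 CPM in KO, and the groups overlapped (0.43 ± 0.16, edgeR adjusted p 0.372, and 0.259 without KO mouse 2). Mrpl32, the homolog of bacterial L32 whose precursor the m-AAA protease cleaves, had 48.0, 54.9 and 47.9 CPM in WT and 31.3, 42.1 and 38.6 CPM in KO, all KO mice lower (-0.42 ± 0.18, edgeR adjusted p 0.454). Their total mRNA levels differed by -0.04, 0.05 and -0.07 on the log2 scale in the same order. Mrpl16 and Mrpl28, both homologs of bacterial proteins, were higher in every KO mouse by 0.18 ± 0.09 and 0.16 ± 0.08, both with an edgeR adjusted p of 0.541.

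Mrpl50, a mitochondria-specific large-subunit protein, was the member whose WT and KO values did not overlap in both kinds of library. Of all rows, 13.3% did not overlap in total and 14.7% in ribosome-contained mRNA. The share of all rows without overlap in both kinds was not counted. Mrpl50 had 70.7, 66.7 and 67.7 CPM in WT and 46.9, 66.1 and 60.4 CPM in KO total mRNA (-0.25 ± 0.11, edgeR adjusted p 0.56). In ribosome-contained mRNA it had 60.4, 59.1 and 58.8 CPM in WT and 51.3, 43.9 and 48.0 CPM in KO (-0.32 ± 0.16, edgeR adjusted p 0.545). Without KO mouse 1 the total mRNA difference was -0.117 (edgeR adjusted p 0.929). KO mouse 2 came close to the WT range in total mRNA and was the lowest in ribosome-contained mRNA. Across all 46 members the signs of the total and ribosome-contained differences matched in 26.

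**Figure D3:**
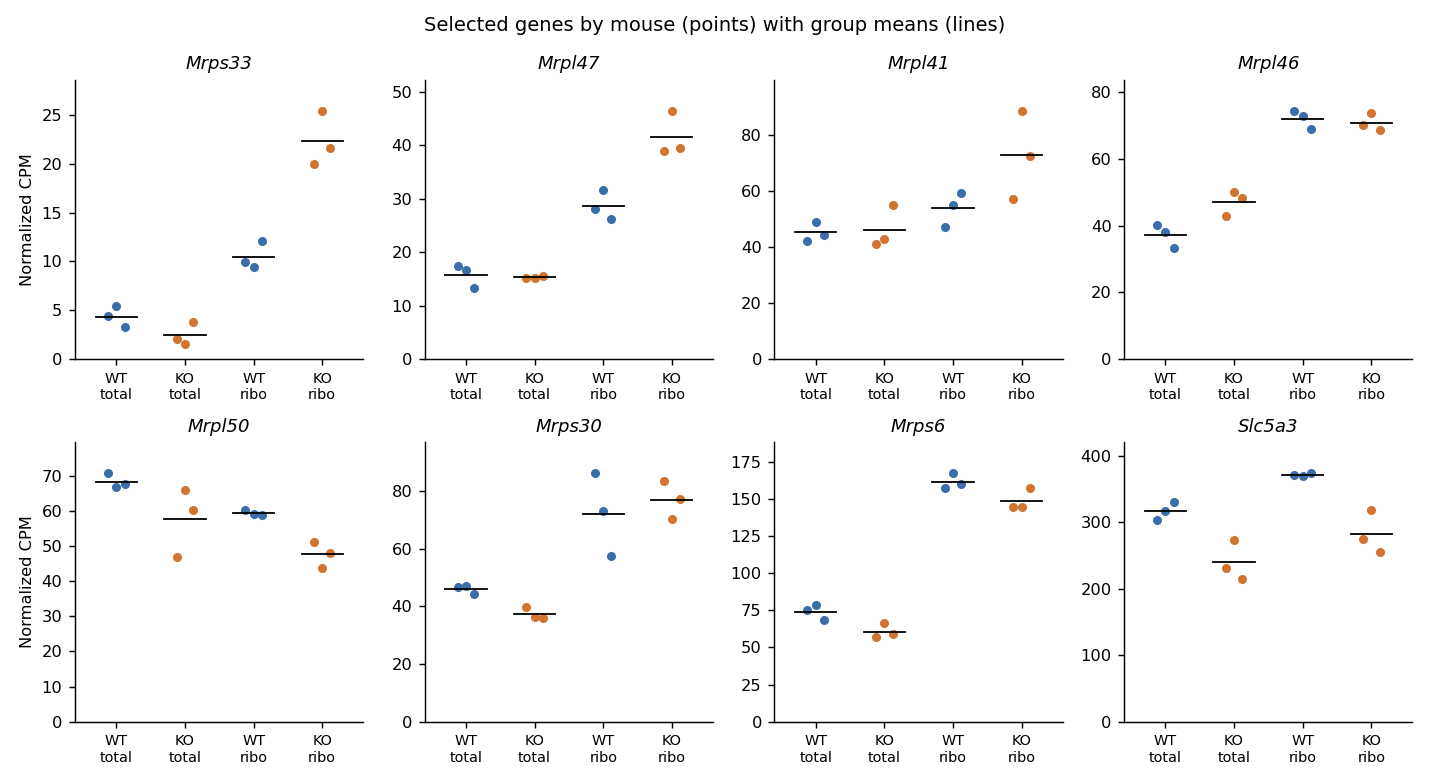
Normalised CPM by mouse (scaled within each kind of library) for 7 members with low p-values and for Slc5a3, the neighbour of Mrps6, in WT and KO total and ribosome-contained (ribo) mRNA. Points are mice and lines group means; in KO ribosome-contained mRNA Mrps33 lies at 19.9 to 25.4 CPM, above the WT mice at 9.43 to 12.1.

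Whether the ribosome-to-total ratio, the measure of translation efficiency, differed between the genotypes was tested as an interaction over all 12 libraries. EdgeR's quasi-likelihood test with Benjamini-Hochberg adjustment called 0 of 46 members and 0.0% of 4601 rows, with 5 members and 4.96% of all rows at an unadjusted p under 0.05. DESeq2 called 0, with 1 member at an unadjusted p under 0.05. With each of the 6 mice as a term, which pairs the libraries of a brain, 4 rows were called and none was a member. The members' median difference was -0.03 (all rows 0.01), with 21 above 0 and 25 below, and 24 of the 95% intervals lay within 0.5 of 0.

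Mrps33 had the lowest p here too, and the highest estimate of all 4601 rows. Ratios were taken from CPM scaled over all 12 libraries together, so each log2 ratio is 0.31 to 0.35 lower than the one that the CPM printed here, scaled within a kind, would give. On that common scale, the log2 ratio of ribosome-contained to total mRNA for Mrps33 was 0.86, 0.48 and 1.58 in the WT mice and 2.93, 3.74 and 2.22 in the KO mice, without overlap. The difference was 1.84 ± 0.50 with a 95% interval of 0.84 to 2.84 (edgeR p 0.00059, adjusted p 0.453). Over the alternatives tried it ranged from 1.48 to 2.29 and its adjusted p from 0.221 to 1.00. The KO total mRNA level behind it was 1.52 to 3.75 CPM.

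The next members were 6 large-subunit proteins and 1 small-subunit protein. Above 0, all of the large subunit, Mrpl47 differed by 0.59 ± 0.27, Mrps30 by 0.40 ± 0.20, Mrpl41 by 0.38 ± 0.21 and Mrpl35, a homolog of bacterial L35, by 0.35 ± 0.19. Without KO mouse 2 the difference of Mrpl41 was 0.145. Below 0 were Mrpl51, a mitochondria-specific large-subunit protein, with -0.41 ± 0.20, Mrpl46 with -0.36 ± 0.19 and Mrps7, the small-subunit homolog of bacterial S7 by the mRNA exit, with -0.24 ± 0.12. Each of these 7 had an adjusted p of 0.96 in edgeR's quasi-likelihood test.

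Because Ftsj1 modifies a phenylalanine tRNA among others, the share of phenylalanine codons in the members was set against these differences. The share had a median of 3.61% over 51 members with a coding sequence and ranged from 0.498% in Mrpl12 to 8.15% in Mrpl41, against a median of 3.64% over 5539 rows. Across the 46 members its correlation with the KO minus WT difference in ribosome-contained mRNA was 0.28 (Pearson) and 0.25 (Spearman), and with the ratio difference 0.05 and -0.06. Over all rows the Spearman values were 0.02 (4110 rows) and 0.00 (4036 rows). The points share the same 12 libraries, and genes are not independent replicates, so these values are descriptions.

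Within a genotype, ribosome-contained mRNA was then compared with total mRNA. In WT, 27 of the 46 members were called in edgeR's quasi-likelihood test, 19 with more and 8 with less in ribosome-contained mRNA, where 72.7% of 4601 rows were called (36.0% higher and 36.7% lower). In KO it was 28, 21 higher and 7 lower, where 71.9% of rows were called (35.9% higher and 36.0% lower). This test compared group means and did not pair the libraries of a brain. With each mouse as a term, 27 members were called in WT (19 higher, 8 lower) and 29 in KO (21 higher, 8 lower). Beside them 3435 and 3395 of 4601 rows were called. The lower calls in WT were the less stable ones: they numbered 4, 3 and 5 without WT mouse 1, 2 and 3 and 3 with DESeq2, where the higher calls numbered 18, 17, 16 and 18. In KO, without KO mouse 1, 2 and 3, they numbered 4, 6 and 5, beside 19, 17 and 20 higher. In all, 23 members were called in both genotypes, all with the same sign, and the estimate kept its sign in 40 of 46. The share of all rows that did so was not counted. The zero of the ratio is set by the scaling, and TMM scaling assumes that most rows do not differ. With library totals in its place, the median of all rows moved from 0.02 to 0.36 in WT. Then 31 members were called higher and 0 lower in WT, beside 2286 and 1167 of 4601 rows. Under that scaling the KO libraries gave 29 higher and 0 lower, beside 2245 and 1192 of all rows. The direction of the lower calls thus holds only relative to the other rows.

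The median log2 ratio of the members was 0.19 in WT and 0.23 in KO (all rows 0.02 in both). It was 0.11 and 0.13 over the 36 members with a single accession, and 0.29 and 0.39 over the 10 with 2 or more. The part of the accessions in the ratios was not tested. The members were closer together than all rows, with an SD of 0.52 in WT and 0.66 in KO against 1.18 and 1.20 over all rows. This was not particular to them: nuclear genes for oxidative phosphorylation subunits had SDs of 0.69 and 0.74. Cytosolic ribosomal protein genes had 1.18 and 1.09. Added up, the members took 0.313% ± 0.00796 of all counts in WT total and 0.455% ± 0.00558 in WT ribosome-contained mRNA, and 0.315% ± 0.00371 and 0.452% ± 0.0157 in KO (SD, n = 3). Mitochondrially encoded genes took 13.3% to 15.2% of WT total counts and 5.62% to 6.07% of WT ribosome-contained counts. The sum of 5 oligodendrocyte markers was 498 to 512 CPM in WT total and 170 to 187 CPM in WT ribosome-contained mRNA, each scaled within its kind. Only 2 of these markers were tested for the ratio in WT, and they went opposite ways. By edgeR's quasi-likelihood test 1 was called lower (-4.94) and 1 higher (0.27). The part of cell types in the ratios was not tested.

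By subunit, the median WT ratio was 0.44 over 15 small-subunit members (8 higher, 2 lower) and 0.13 over 31 large-subunit members (11 higher, 6 lower). In KO these medians were 0.50 and 0.16. The ratio was above 0 in all 6 mice for 8 of the 15 small-subunit and 12 of the 31 large-subunit members, and below 0 in all 6 for 2 and 4. The share of all rows on the same side in all 6 mice was not counted. Several accessions are listed for Mrps14, Mrps16, Mrps18b, Mrps31 and Mrps33 of the small subunit. In the large subunit this holds for Mrpl3, Mrpl9, Mrpl10, Mrpl15 and Mrpl36. Among the 6 highest ratios in WT, 3 belonged to small-subunit proteins with no bacterial homolog. The difference between the subunits itself was not tested.

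Mrps31, a mitochondria-specific small-subunit protein, had the highest ratio in WT. Its values rest on 500 counts over the 12 libraries, on 1 of the 3 accessions of the gene. Mrps31 had 10.6, 8.34 and 8.75 CPM in WT total and 43.0, 41.1 and 46.6 CPM in WT ribosome-contained mRNA, each scaled within its kind. On the common scale its log2 ratio was 1.90 ± 0.22 in WT and 1.50 ± 0.22 in KO (edgeR adjusted p 2.75e-10 and 4.74e-08). Mrps22, also of the small subunit, had 27.4, 20.6 and 25.0 CPM in WT total and 83.6, 84.9 and 83.0 CPM in WT ribosome-contained mRNA. On the common scale its log2 ratio was 1.43 ± 0.14 in WT (edgeR adjusted p 3.51e-12), and its 6 mouse ratios lay between 1.28 and 1.78, all well above 0.

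Mrpl32 followed with 1.20 ± 0.18 in WT and 0.85 ± 0.19 in KO, and Mrpl16, whose bacterial homolog helps to place tRNA at the peptidyl transferase centre, with 1.02 ± 0.09 and 1.13 ± 0.09. Mrps33 had 1.00 ± 0.35 in WT and 2.83 ± 0.33 in KO, and without WT mouse 3 its WT ratio was 0.69 and no longer called (edgeR adjusted p 0.186). Mrps18c, another S18-related protein, had 0.85 ± 0.13 and 1.11 ± 0.13. The other 5 of these 6 highest members kept their calls in WT under every alternative tried.

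At the low end stood Mrpl50, with -0.53 ± 0.13 in WT and -0.61 ± 0.14 in KO. Its mouse ratios on the common scale ran from -0.92 to -0.22 and were below 0 in all 6 mice. Mrpl19, a homolog of bacterial L19, had -0.39 ± 0.12 and -0.44 ± 0.13, also below 0 in all 6 mice. Mrpl49 had -0.36 ± 0.15 and -0.39 ± 0.15, and Mrpl43 had -0.31 ± 0.12 and -0.12 ± 0.13, called in WT alone. Both are mitochondria-specific large-subunit proteins. The small-subunit homologs Mrps14 and Mrps16 had -0.50 ± 0.21 and -0.30 ± 0.20 in WT, and Mrps16 was not called (edgeR adjusted p 0.179). Mrps14 was -0.259 without WT mouse 3 and -0.394 without WT mouse 2, no longer called (edgeR adjusted p 0.365 and 0.17), and -0.869 without WT mouse 1. Mrps16 was -0.171 without WT mouse 2. Mrpl49 and Mrpl43 also lost their calls without WT mouse 1 (-0.294 and -0.235) and without WT mouse 2 (-0.337 and -0.296). With library totals in place of TMM scaling none of these 6 was called, and Mrpl43 and Mrps16 had ratios above 0 (0.03 and 0.04).

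**Figure D4:**
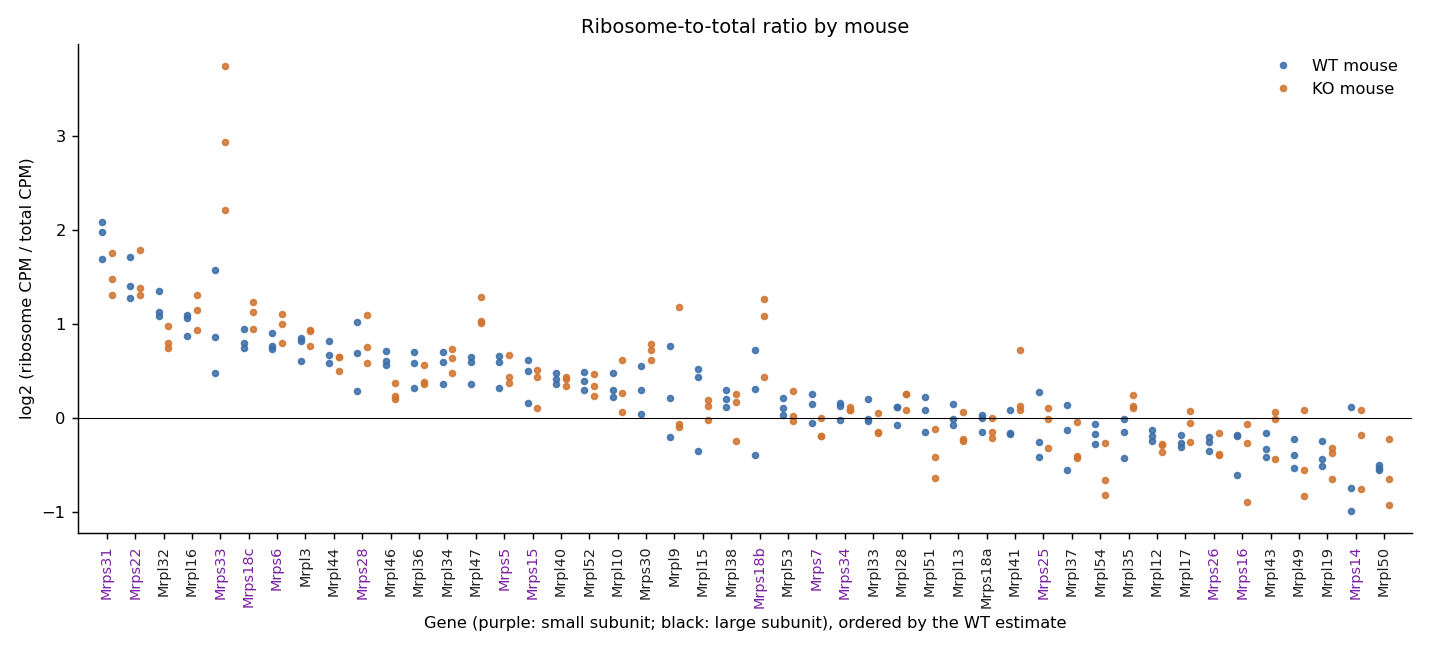
Log2 ratio of ribosome-contained to total CPM, scaled over all 12 libraries, for 46 members, 1 point per mouse, WT in blue and KO in orange, ordered by the WT estimate; purple names are small-subunit and black names large-subunit genes. Ratios run from 1.90 for Mrps31 to -0.53 for Mrpl50 in WT, and the KO points of Mrps33 stand above its WT points.

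The members differ in how much of the transcript is coding, from 7.23% in Mrpl17 to 90.0% in Mrps22, with a median of 43.9% over 51 members against 45.9% over 5539 rows. Ribosome-protected fragments come mostly from the coding part, while total mRNA can be read along the whole transcript. Where reads fell along the transcripts was not examined here. Across 46 members the WT ratio and the coding share had a Pearson r of 0.40 and a Spearman rho of 0.42, and over 4036 rows 0.29 and 0.32. In KO the values for the members were 0.25 and 0.34. The length after the stop codon had a Spearman rho of -0.33 with the WT ratio of the members and -0.24 over all rows. All points come from the same libraries, so the values only describe them. The transcript lengths used for Mrpl32, Mrpl51, Mrps16 and Mrps26 exceed their whole genes in RefSeq. Their coding shares may therefore not describe the counted rows, and the correlations share this limit. By these lengths Mrpl32 lay off the pattern, with a ratio of 1.20 at a coding share of 18.6%. So did Mrpl37, with -0.15 at 84.7%.

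**Figure D5:**
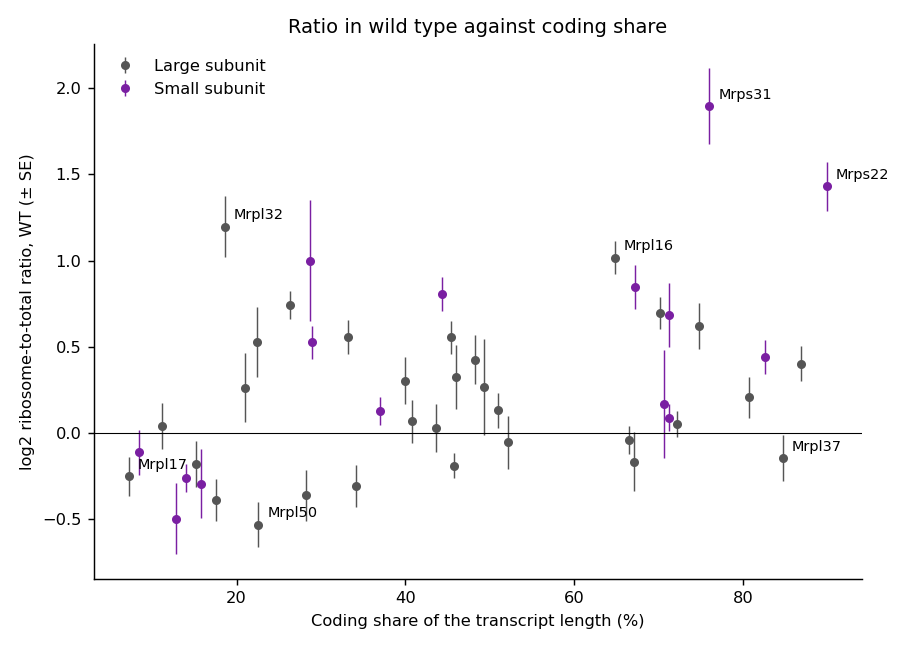
Log2 ribosome-to-total ratio in WT (± SE) against the share of the transcript length that is coding (%), 1 point per member (46), large subunit in grey and small subunit in purple. The Pearson r is 0.40. Mrpl32 at 18.6% and Mrpl37 at 84.7% lie away from the rest, and the transcript length used for Mrpl32 exceeds its whole gene in RefSeq.

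Other gene groups were set beside the members. Of 81 cytosolic ribosomal protein genes 35 were tested for the ratio, with a WT median of -0.81, 4 higher and 26 lower. Of 83 nuclear genes for oxidative phosphorylation subunits 59 were tested, with a median of 0.46, 44 higher and 6 lower. The 13 mitochondrially encoded mRNAs, which mitochondrial ribosomes translate, had a median of -1.47, with 12 lower and 1 higher. The members thus had a median between those of the cytosolic ribosomal proteins and of the respiratory chain, and their quartiles in WT (-0.14 and 0.55) lay above the upper quartile of the cytosolic ribosomal proteins (-0.24). The difference between these groups was not tested.

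Between the genotypes, none of these 3 groups held a called gene in total or ribosome-contained mRNA by edgeR's quasi-likelihood test or DESeq2. At an unadjusted p under 0.05 edgeR gave 3 and 4 cytosolic ribosomal protein genes and 7 and 3 genes for oxidative phosphorylation. The 13 mitochondrially encoded mRNAs were below 0 in 12 cases in total mRNA (median -0.07) and above 0 in all 13 in ribosome-contained mRNA (median 0.13). They had 2 and 8 rows at an unadjusted p under 0.05 in edgeR, and 0 and 8 in DESeq2. The main edgeR test of the ratio difference called 0 of the 13. All 13 were above 0 there (median 0.22), 8 of them at an unadjusted p under 0.05, against 4.96% of all rows. With each mouse as a term in that test, 2 of the 13 were among the 4 rows called. These were ND1 (0.27, edgeR adjusted p 0.000642) and COX3 (0.28, edgeR adjusted p 0.00782), both encoded by mitochondrial DNA and part of complexes I and IV.

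Subunits that carry other names and the factors that work with the mitochondrial ribosome showed no calls between genotypes either. The list of such subunits held 6 genes, of which 4 were tested in total mRNA: Chchd1, Aurkaip1, Gadd45gip1 and Oxa1l. The protein of Oxa1l inserts new proteins into the inner membrane and was listed with them although it is not a ribosome subunit. Of 16 translation factors 9 were tested in total and 8 in ribosome-contained mRNA, and of 27 assembly factors 14 and 10, all with 0 calls by edgeR and DESeq2. At an unadjusted p under 0.05 in edgeR the factors had 1 and 0, and the assembly factors 2 and 0, against 0 in DESeq2 for both. The highest WT ratio among the translation factors was 1.88 for Lrpprc, which stabilises mitochondrial mRNAs, and the lowest was -1.01 for Pdf, the peptide deformylase. Gfm1, the elongation factor that moves the ribosome along the mRNA, had 1.12.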

How the data were processed

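Total mRNA and ribosome-contained mRNA were sequenced from the brains of 3 WT and 3 Ftsj1 KO mice, and the 12 HiSeq libraries were used; the MiSeq libraries were not used here. The deposited values are whole-number read counts per RefSeq transcript accession, not normalized. Per the submitters' processing notes, the authors used Bowtie2, HISAT2 and HTSeq with mouse build mm10; the sources used here do not give their roles, versions, strand setting or treatment of reads with several matches. All 106519 rows were kept as deposited, and 86032 of them, with 97.9% of counts, matched a gene in the RefSeq table of GRCm38.p6. Lengths and codons came from the transcript that GENCODE pairs with each accession. Versions were not matched, and for Mrpl32, Mrpl51, Mrps16 and Mrps26 that transcript is longer than the whole RefSeq gene.

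Rows were kept by edgeR's filter (minimum count 10, minimum total 15), scaled by TMM and tested with edgeR 4.0.16 (R 4.3.3), robust quasi-likelihood, with Benjamini-Hochberg adjustment over all rows at 0.05. KO and WT were compared in the 6 libraries of a kind, and the ribosome-to-total ratio, and its difference between genotypes, in all 12. Levels are TMM-normalized CPM scaled within each kind of library, and ratios use TMM factors over all 12 libraries. Standard errors were derived from the quasi-likelihood F statistic. DESeq2 1.42.0 was an alternative, beside other scalings, no filter, summed accessions, leaving out replicates and the replicate block. The fit was tested on simulated data. Named are the 8 members with the lowest p in each genotype comparison, the 6 with the highest and the 6 with the lowest WT ratio and the 6 with the highest level per length. Members and lists were chosen with earlier results of these data known.

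The labels tie the total and ribosome-contained libraries to the same mouse. Deviations from the group means of the paired libraries correlated at 0.0270 to 0.155 over rows. The labels do not say whether the mice came from separate litters, so p-values measure the spread between these mice. Depth limits low genes: a member with few counts has a wide interval.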

Additional observations from a re-analysis of the deposited data

How the results depend on the processing

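No member was called in a genotype comparison under any alternative run. Without the filter on low counts, the rows called over all genes were 43 in total mRNA (main value 27), 27 in ribosome-contained mRNA (10) and 4 in the ratio difference (0), and 6569 and 6477 in the WT and KO ratios. Leaving out 1 mouse gave 9 to 42, 4 to 24 and 0 to 4 calls in the 3 genotype comparisons. WT and KO mice share only a replicate number (correlations 0.00708 to 0.0447); with that replicate block 32 rows were called in total and 55 in ribosome-contained mRNA, and with each mouse as the replicate block of the ratio difference 4. The members' median ratio in WT was 0.528 with library totals alone and 0.137 to 0.197 with 1 mouse left out; in KO it was 0.548, 0.173 to 0.234, and 0.111 without the filter. With library totals alone the WT ratios of Mrpl43 (0.0329) and Mrps16 (0.0438) reversed, since that scaling moves all rows upward. DESeq2 called 21 members in the WT ratio (18 higher, 3 lower) and 27 in the KO ratio. Members with few counts, such as Mrps33, have intervals too wide to show small differences.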
